A study of Homo sapiens with 28 samples.

Results

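The late response to MYCN was measured by setting an inducible line of neuroblastoma cells against a mock line of the same origin, after each line had been brought to its own starting level. Both derive from SK-N-AS, a human neuroblastoma cell line in long-standing use that has no amplified MYCN. The comparison used 16 late arrays of the 28 in the series: 12 of SK-N-AS-tet cells with MYCN at times 24, 48, 96 and 192 after doxycycline, in 3 replicates at each time, against 4 of the mock line, 1 for each of these times. Every array was taken as log2 of the deposited intensity less the mean of its own line at times 0, 4 and 8, which are 9 arrays of the MYCN line and 3 of the mock line. Arrays were taken by line and time alone, not by a measured value. The comparison itself and the gene lists used below were chosen with earlier results of these data known. The shares of list members called are therefore descriptions. The unit of time is not stated in the labels.

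Doxycycline turns on a transgene for MYCN in the inducible line. The mock line carries pcDNA6TR, a plasmid that encodes the tet repressor, and was likewise harvested after doxycycline. Whether either line is a single clone, and whether replicates came from separate cultures, is not given in the sources used here. The p-values therefore reflect how far these arrays scatter. The test of late against early change grouped arrays by line and period, so changes between times within a period count as scatter. The mock line had no replicates at any time, and its arrays of different times stood in for them. In the MYCN line, the scatter between replicates of the same time may be technical only. The baseline includes times 4 and 8, when MYCN was already induced, so a gene that responded early is understated. The number of arrays limits the precision.

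MYCN is a transcription factor of the MYC family that binds DNA as a heterodimer with MAX, at E-box sequences such as CACGTG. MYC proteins are known for driving ribosome production, nucleotide synthesis and other growth processes, and for lowering many genes of adhesion and differentiation. MYCN amplification marks aggressive neuroblastoma, a tumour of the sympathetic nervous system in which noradrenergic and mesenchymal cell states are distinguished. MXD and MXI1 proteins compete with MYC proteins for MAX.

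The induced gene itself checked the labels. MYCN read 3065, 4058 and 4778 (lowest, median and highest) in the 12 late MYCN arrays, against 69.4, 1858 and 4202 in the 9 early ones. Mock MYCN signals were 2.4, 1.6, 3 and 2.7 at times 24, 48, 96 and 192, against 2.3, 1.9 and 3 at times 0, 4 and 8. Mock values were background at all times. MYCN signals in the MYCN line averaged 3951 ± 218 at time 8 and 2168 ± 820 at time 4, against 84 ± 17.5 at time 0 (SD, n = 3 each), so the early baseline already held the induced gene. MYCN itself was not called: its difference between lines was 2.15 (SE 1.21), limma adjusted p = 0.244.

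Markers of cell identity differed between the lines before any late change. Of 18 noradrenergic markers on the array, 5 had a mean signal of at least 50 in the late and 6 in the early MYCN arrays, against 9 in the late and 8 in the early mock arrays. Their summed signal was 1051 to 2156 late and 2101 to 3267 early in the MYCN line, against 6789 to 8592 late and 6037 to 6497 early in the mock line. PHOX2A, a factor that defines the noradrenergic lineage, averaged 6.3 late and 4.33 early in MYCN cells, against 808 and 696 in mock cells. TH and DBH, the enzymes that make noradrenaline, averaged at most 5.2 in either line and period. Of 19 mesenchymal markers 17 reached 50 in MYCN cells and 18 in mock cells, both late and early. Of 8 Schwann cell markers 0 reached 50 in either line or period. Subtracting the own early mean takes out the level of each line, and the part that their different starting states play in the results was not tested.

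The mock array of time 192 stood apart. Its log2 values correlated with those of the other mock arrays at 0.957 to 0.970, while the other 6 mock arrays correlated with each other at 0.979 to 0.986. Its median signal was 20.2, against 16.9 to 18.3 in the other mock arrays and 12.9 to 17.2 in the MYCN line. The 3′ to 5′ ratio for ACTB, a sign of RNA integrity, was 1.10 to 1.31 late and 1.11 to 1.25 early in the MYCN line, against 1.41 to 1.55 late and 1.33 to 1.4 early in the mock line. Every late mock array thus had a higher ratio than every early one, with the highest (1.55) at time 192, and the part of RNA quality in the results was not tested. Results are therefore given with and without this array. Signals of the hybridisation controls split the arrays into 2 sets, called batches here although the labels name none: replicates 1 and 2 of the MYCN line (bioD signal 1231 to 1537) and replicate 3 with all mock arrays (1773 to 2069). Both lines could be compared within batch 2. Intensity in bulk samples cannot tell fewer cells of a type from less RNA per cell.

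Both rising and falling genes were found at late times. Of 11865 genes tested, 1690 (14.2%) differed between the lines in their change (limma adjusted p under 0.05, termed called below), 837 (7.05%) of them higher in the MYCN line and 853 (7.19%) lower. A difference of at least 2-fold was found for 108 of the higher and 311 of the lower genes. In the MYCN line alone 4380 genes (36.9%) were called, 2003 (16.9%) higher late and 2377 (20.0%) lower late. In the mock line alone 3 genes (0.0253%) were called (limma), 1355 had an unadjusted p under 0.05, and 26 were called with the replicate numbers as a block. Without the mock array of time 192, 1087 genes differed (9.16%), 559 higher (4.71%) and 528 lower (4.45%), among them 529 of the 837 higher and 497 of the 853 lower genes. The count was also moved by over 1.5 times without MYCN replicate 2 (922) and without the mock array of time 0, 4 or 8 (1113, 938 and 1036). Within batch 2, with 7 arrays of each line, 419 genes were called (3.53%), 212 higher (1.79%) and 207 lower (1.74%). These included 200 of the 837 and 180 of the 853. All of the 837 and 853 kept their sign there, but batch 2 reuses all mock arrays and MYCN replicate 3 of the main test. The genes were selected on those values, so the kept signs are not a separate test. Of 85 named genes called below, 35 were called within batch 2, 18 with time 0 alone as baseline, 23 over late times 24 and 48 and 81 over times 96 and 192. These alternatives hold fewer arrays, and they are given at the end of each account with the genes they ended.

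By the medians of the called genes, the MYCN line supplied the larger part of the difference. The mock change was the larger in size for 254 of the 837 higher and 157 of the 853 lower genes. In the MYCN line itself, 132 of the higher and 77 of the lower genes were not called. Among the 837 higher genes the median change was 0.33 (log2) in MYCN cells and -0.19 in mock cells, or -0.14 in the mock line without its time 192 array. Among the 853 lower genes it was -0.58 in MYCN cells and 0.24 in mock cells (0.19 without that array). These genes were selected on the difference of the same values, so the opposite signs of the medians are a description. Of the genes called higher in the MYCN line alone, 45.2% also had a positive mock change, against 53.6% of all tested genes. Of those called lower there, 43.0% had a negative mock change, against 46.4% of all tested genes.

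All 12 late MYCN arrays lay above all 4 late mock arrays for 907 genes (7.64% of those tested) and below them for 951 (8.02%), or above for 1084 (9.14%) and below for 1199 (10.1%) with mock time 192 left out. Among the called genes this held for 708 of 837 and 695 of 853. Genes at least 2-fold away from their own early mean numbered 268 to 299, 270 to 734, 615 to 857 and 743 to 1047 in single MYCN arrays of times 24, 48, 96 and 192. The mock arrays of these times had 168, 153, 202 and 709 such genes. Each MYCN replicate had more such genes at time 192 than at time 24, although replicate 2 had 743 at time 192 and 857 at time 96, and replicate 3 had 270 at time 48 and 274 at time 24. The mock array of time 192 lay close to the lowest MYCN array of its time.

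**Figure D1:**
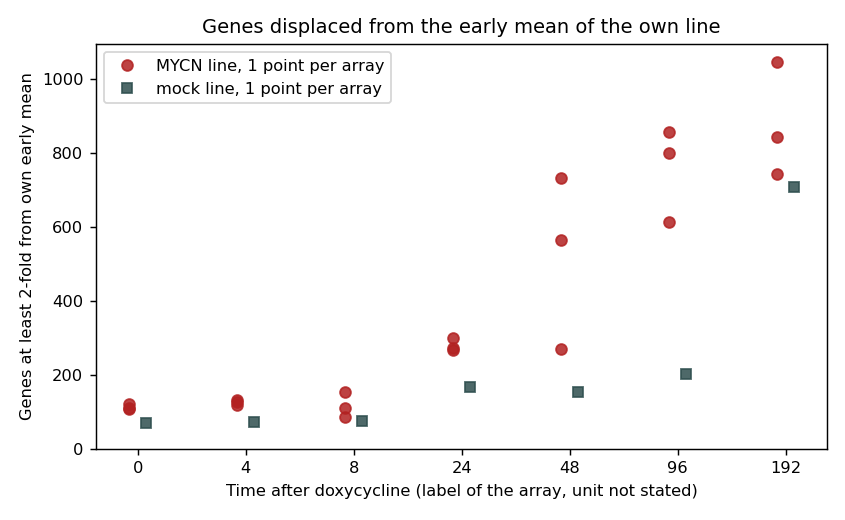
Number of tested genes at least 2-fold away from the early mean of the own line, for each of the 28 arrays by time label (unit not stated), MYCN line left and mock line right at each time, 1 point per array. Late MYCN arrays hold 268 to 1047 such genes, and the mock arrays hold 168, 153 and 202 at times 24, 48 and 96 and 709 at time 192.

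For the called genes, the median distance between the lines was larger at each later time. These genes were called on the average of the same late values, and each time has 1 mock array. The test of slopes given below called 118 genes, and 0 without the mock array of time 192 (limma). The median line difference of the 837 higher genes was 0.35, 0.44, 0.56 and 0.75 in the order of times 24, 48, 96 and 192. For the 853 lower genes it was -0.54, -0.71, -0.95 and -1.14 at these times. Over all tested genes, 174 were at least 2-fold higher and 231 at least 2-fold lower at time 24, against 516 and 1294 at time 192. The time 192 values rest on the mock array that stood apart.

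**Figure D2:**
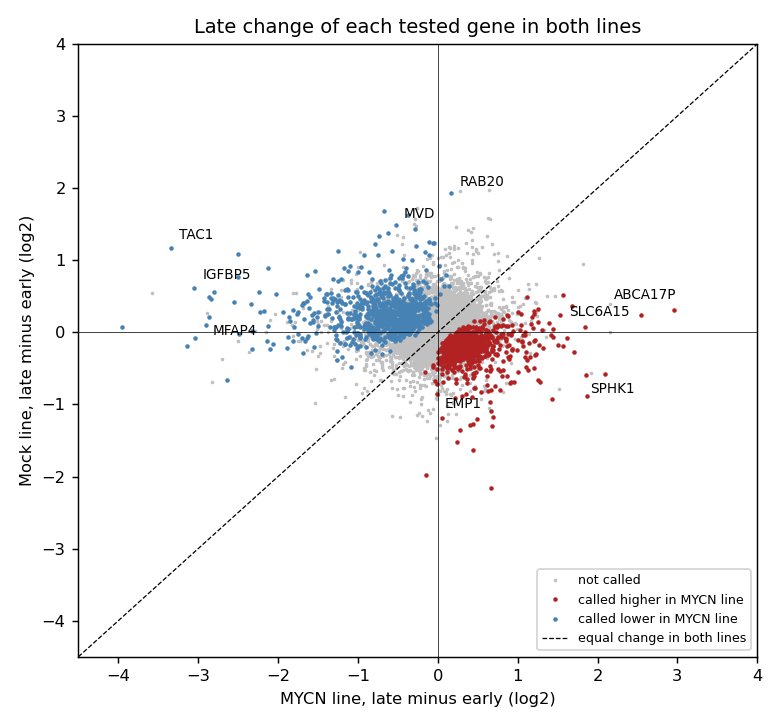
Late minus early change of each of 11865 tested genes, in the MYCN line (horizontal, log2) and in the mock line (vertical, log2), each point 1 gene. Red points were called higher in the MYCN line (837), blue points lower (853), grey points were not called, and the dashed line marks an equal change in both lines. Most called genes spread along the horizontal axis, while RAB20 and EMP1 moved in the mock line.

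Within the MYC family the endogenous MYC gene was lower. MYC read 25.7, 58.9 and 135 in the 12 late MYCN arrays, against 84.1, 161 and 308 in the 9 early ones. Mock MYC signals were 291, 244, 240 and 298 in time order, against 256, 283 and 266 early. All 12 late MYCN arrays lay below the mock arrays after subtraction, at -2.69, -1.5 and -0.30 (lowest, median and highest) against 0.12, -0.14, -0.16 and 0.15 in the late mock arrays. The difference was -1.52 (SE 0.48), limma adjusted p = 0.0310. The MYC call was lost without MYCN replicate 3 or the mock array of time 0, 4, 8, 24 or 192 (-1.56 to -1.20, limma adjusted p = 0.0513 to 0.0726). MAX, the partner of all MYC proteins, was higher (0.31 (SE 0.10), limma adjusted p = 0.0353), which was lost without MYCN replicate 2 or the mock array of time 0, 4, 48, 96 or 192 (0.28 to 0.32, limma adjusted p = 0.0513 to 0.117). MXI1, an antagonist of MYC proteins, was higher (1.05 (SE 0.23), limma adjusted p = 0.00321) and kept its call with any 1 library left out. MXI1 read 709, 926 and 1213 in the 12 late MYCN arrays, against 261, 393 and 639 in the 9 early ones. Mock MXI1 signals were 439, 390, 339 and 433 in time order, against 345, 359 and 397 early. All late MXI1 signals of the MYCN line exceeded the early ones, while late mock signals overlapped the early ones. MXD1, a related antagonist, was lower (-0.70 (SE 0.22), limma adjusted p = 0.0339), a call lost without MYCN replicate 1 or 2 or the mock array of time 0, 4, 24 or 96 (-0.72 to -0.56, limma adjusted p = 0.0616 to 0.134). Of the 9 tested members of the MYC network list, 2 were higher and 2 lower (22.2% each, against 7.05% and 7.19% of all tested genes). MYC, MAX, MXI1 and MXD1 are these. MAX and MXD1 were not called within batch 2 (limma adjusted p = 0.129 to 0.286). MYC, MAX and MXD1 were not called with time 0 alone as baseline or over times 24 and 48 (limma adjusted p = 0.0768 to 0.196).

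The largest differences upward came from genes of diverse function. ABCA17P, a pseudogene of the ATP-binding cassette transporters, stood first. ABCA17P read 95.5, 121 and 166 in the 12 late MYCN arrays, against 10.6, 14.8 and 24.7 in the 9 early ones. Mock ABCA17P signals were 14.8, 15.2, 15.6 and 19.6 in time order, against 23.7, 7.9 and 11.8 early. Late MYCN arrays had signals at least 3 times those of every other array, and the difference was 2.64 (SE 0.33), limma adjusted p = 1.39e-05. SPHK1 makes the lipid messenger sphingosine-1-phosphate. SPHK1 read 73.1, 176 and 432 in the 12 late MYCN arrays, against 32.6, 45.1 and 69.8 in the 9 early ones. Mock SPHK1 signals were 40.2, 37.9, 39.1 and 30 in time order, against 65.4, 46.8 and 54.1 early. SPHK1 was the second largest, at 2.44 (SE 0.46), limma adjusted p = 0.00114, with the mock signals of all late times below those of times 0, 4 and 8. STAG3 is a cohesin subunit known from meiosis. STAG3 read 75.1, 102 and 114 in the 12 late MYCN arrays, against 22, 28.5 and 42.2 in the 9 early ones. Mock STAG3 signals were 20.6, 16.9, 21.7 and 29.2 in time order, against 29, 19.9 and 31.4 early. Its late MYCN signals all exceeded the early ones, and the difference was 1.98 (SE 0.24), limma adjusted p = 9.48e-06. ABCA17P, SPHK1 and STAG3 kept their calls with any 1 library left out. SPHK1 was not called with time 0 alone as baseline (limma adjusted p = 0.0527).

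Among these genes were amino acid transporters. SLC7A5 is the light chain of the main importer of large neutral amino acids. SLC7A5 read 173, 299 and 492 in the 12 late MYCN arrays, against 60.8, 121 and 206 in the 9 early ones. Mock SLC7A5 signals were 54.1, 57.8, 47.3 and 44.1 in time order, against 79.9, 76.8 and 82.1 early. The MYCN line gained and the mock line lost signal, and the difference was 1.91 (SE 0.40), limma adjusted p = 0.00260. SLC6A15 carries neutral amino acids in neural cells. SLC6A15 read 166, 271 and 408 in the 12 late MYCN arrays, against 53.2, 73.1 and 116 in the 9 early ones. Mock SLC6A15 signals were 97.5, 88.2, 93.4 and 151 in time order, against 93.8, 106 and 100 early. Here the mock line stayed near its early level up to time 96, and the difference was 1.77 (SE 0.29), limma adjusted p = 2.78e-04. HPDL, a mitochondrial enzyme related to hydroxyphenylpyruvate dioxygenase, differed by 2.07 (SE 0.44), limma adjusted p = 0.00281, but its mock signals were 1.2, 3.1, 2.4 and 0.9 late, near background, so that its MYCN line change of 0.44 is the better measured part. ZFR2, a zinc finger RNA-binding protein, differed by 1.97 (SE 0.29), limma adjusted p = 1.56e-04, and CABLES1, an adaptor of cyclin-dependent kinases, by 1.70 (SE 0.41), limma adjusted p = 0.00726. DUSP5, a nuclear phosphatase of ERK, differed by 1.76 (SE 0.48), limma adjusted p = 0.0152, a call lost without the mock array of time 8 (1.65, limma adjusted p = 0.0514). SLC7A5, SLC6A15, HPDL, ZFR2 and CABLES1 kept their calls with any 1 library left out. HPDL, CABLES1 and DUSP5 were not called within batch 2 (limma adjusted p = 0.0730 to 0.109). CABLES1 and DUSP5 were not called with time 0 alone as baseline (limma adjusted p = 0.278 to 0.280). SLC7A5, HPDL, CABLES1 and DUSP5 were not called over times 24 and 48 (limma adjusted p = 0.0564 to 0.106). ZFR2 was not called with the mean of probe sets, and its difference was as small as 0.86 among the alternatives.

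Metallothioneins, small proteins that bind zinc and copper, made up the rest of the 12 largest differences upward. MT1X differed by 1.69 (SE 0.39), limma adjusted p = 0.00537, with a change of 0.49 in MYCN cells and -1.20 in mock cells. MT1X read 621, 1116 and 3151 in the 12 late MYCN arrays, against 686, 755 and 952 in the 9 early ones. Mock MT1X signals were 516, 529, 480 and 195 in time order, against 961, 941 and 864 early. The mock line fell far at time 192, and without that array the MT1X difference was 1.35, limma adjusted p = 0.0204. MT1F differed by 1.86 (SE 0.55), limma adjusted p = 0.0222, lost without MYCN replicate 2 or the mock array of time 0, 8 or 192 (1.62 to 1.91, limma adjusted p = 0.0587 to 0.0727). MT1HL1 differed by 1.76 (SE 0.60), limma adjusted p = 0.0457, lost without MYCN replicate 1, 2 or 3 or the mock array of time 0, 4, 8 or 192 (1.08 to 1.94, limma adjusted p = 0.0576 to 0.168). These 3 probe sets carry the suffix _x_at and can match several members of the family. MT1X and MT1HL1 were not called within batch 2 (limma adjusted p = 0.0692 to 0.187). MT1X, MT1F and MT1HL1 were not called with time 0 alone as baseline (limma adjusted p = 0.188 to 0.314). MT1HL1 was not called over times 24 and 48 (limma adjusted p = 0.376).

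TAC1, LAMP5 and IGFBP5 stood first among the named genes that were lower. TAC1 encodes the precursor of substance P and neurokinin A. TAC1 read 18.4, 113 and 928 in the 12 late MYCN arrays, against 779, 1472 and 1868 in the 9 early ones. Mock TAC1 signals were 63.5, 64, 94.5 and 165 in time order, against 40.3, 42.6 and 36.4 early. The lines moved apart: mock TAC1 was higher at each late time than at any early time, while the MYCN line lost most of its signal by time 96 (78.1 ± 50.1 there, and 1542 ± 268 at time 0; SD, n = 3 each). The difference was -4.51 (SE 1.05), limma adjusted p = 0.00573. IGFBP5 is a secreted binding protein of insulin-like growth factors. IGFBP5 read 7.3, 30.6 and 75.6 in the 12 late MYCN arrays, against 111, 233 and 323 in the 9 early ones. Mock IGFBP5 signals were 39.4, 30.2, 41.4 and 46.1 in time order, against 32.3, 18.6 and 26.9 early. The difference was -3.67 (SE 0.62), limma adjusted p = 4.27e-04, with late MYCN signals all below the early ones. LAMP5 is a neuronal relative of the lysosomal membrane proteins. LAMP5 read 0.8, 2.3 and 29.2 in the 12 late MYCN arrays, against 34.5, 42 and 103 in the 9 early ones. Mock LAMP5 signals were 56.8, 31.6, 35.8 and 20.3 in time order, against 37, 27.4 and 32.7 early. LAMP5 differed by -4.02 (SE 1.0), limma adjusted p = 0.00857, but most late MYCN signals were at background, so the size of its difference and its rank are uncertain. CBLN2, a secreted synapse organiser, differed by -3.01 (SE 0.60), limma adjusted p = 0.00155. TAC1, IGFBP5, LAMP5 and CBLN2 kept their calls with any 1 library left out. TAC1 and LAMP5 were not called within batch 2 (limma adjusted p = 0.0650 to 0.0793). TAC1, IGFBP5, LAMP5 and CBLN2 were not called with time 0 alone as baseline (limma adjusted p = 0.0501 to 0.246). TAC1 and LAMP5 were not called over times 24 and 48 (limma adjusted p = 0.0751 to 0.0797).

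C1S, a protease of the classical complement pathway, and the matrix genes MFAP4 and DCN were lower as well. C1S read 1.2, 7.2 and 36.2 in the 12 late MYCN arrays, against 32, 60.3 and 95.7 in the 9 early ones. Mock C1S signals were 306, 310, 338 and 452 in time order, against 234, 258 and 249 early. The C1S difference was -3.36 (SE 0.84), limma adjusted p = 0.00900. MFAP4 is a glycoprotein of elastic microfibrils. MFAP4 read 16.5, 51.9 and 338 in the 12 late MYCN arrays, against 423, 486 and 762 in the 9 early ones. Mock MFAP4 signals were 2028, 1825, 1876 and 1478 in time order, against 1542, 1456 and 1653 early. The MFAP4 difference was -3.07 (SE 0.80), limma adjusted p = 0.0112, while the mock line lay at 0.39, 0.24, 0.28 and -0.067 (log2) from its early mean at the 4 late times. DCN, the proteoglycan decorin, differed by -2.98 (SE 0.82), limma adjusted p = 0.0156. CFAP95, a protein of cilia and flagella, differed by -3.27 (SE 0.79), limma adjusted p = 0.00687, and TM7SF2, a sterol reductase, by -2.80 (SE 0.69), limma adjusted p = 0.00813. These 5 genes kept their calls with any 1 library left out. The late MYCN medians of C1S (7.2), CFAP95 (10.8), TM7SF2 (12.05) and CBLN2 (11.95) were under the filter level of 12.8 in signal, so the sizes of these differences and their order are uncertain. GASK1B, a Golgi protein, differed by -2.95 (SE 0.94), limma adjusted p = 0.0349, a call lost without MYCN replicate 1 or 2 or the mock array of time 0, 4, 8, 24, 48, 96 or 192 (-3.08 to -2.83, limma adjusted p = 0.0510 to 0.0777). C1S, MFAP4, DCN and GASK1B were not called within batch 2 (limma adjusted p = 0.0724 to 0.111). C1S, MFAP4, DCN, CFAP95, TM7SF2 and GASK1B were not called with time 0 alone as baseline (limma adjusted p = 0.154 to 0.382). C1S, MFAP4 and DCN were not called over times 24 and 48 (limma adjusted p = 0.0719 to 0.110). CFAP95 was not called with the mean of probe sets, and its difference was as small as -1.31 among the alternatives.

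**Figure D3:**
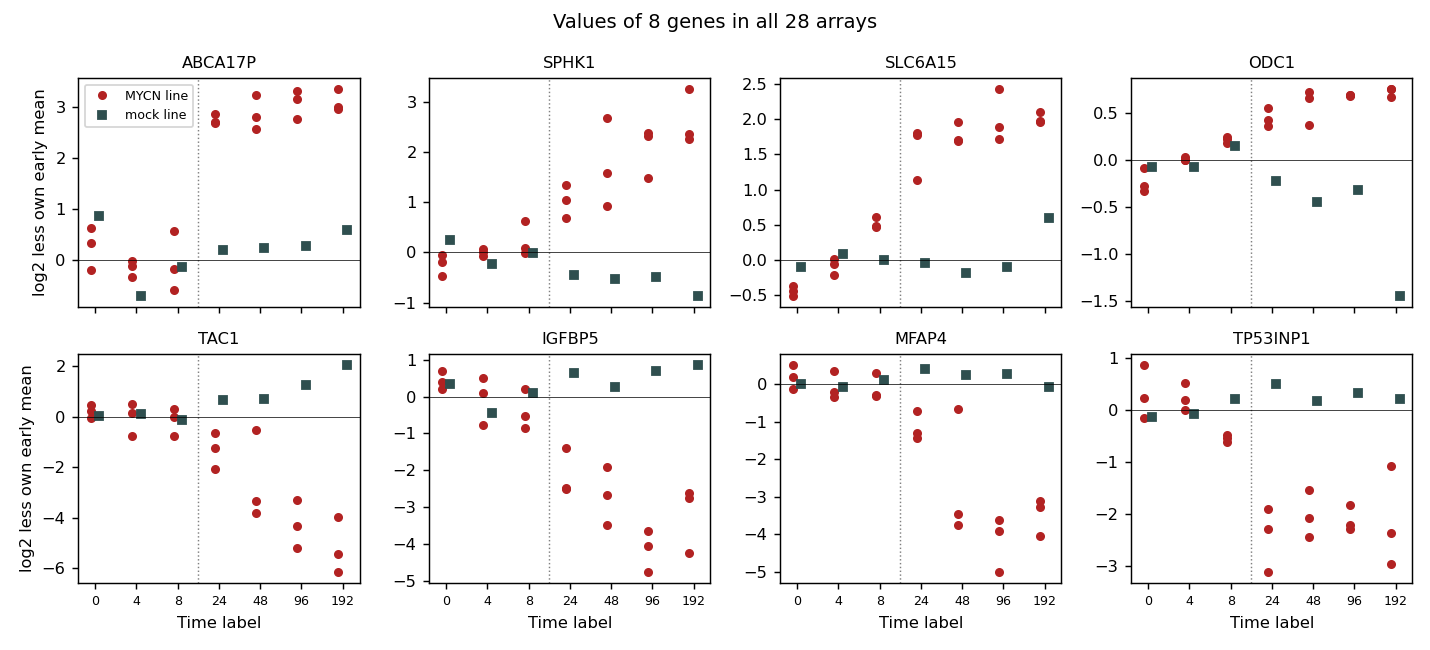
Values of 8 genes in all 28 arrays, as log2 less the early mean of the own line (vertical) by time label (horizontal, unit not stated), 1 point per array, MYCN line (circles) left of mock line (squares) at each time. The dotted line parts early from late times. In the top row late MYCN arrays lie above late mock arrays, with ODC1 also falling in the mock array of time 192, and in the bottom row they lie below.

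Promoters bear on these genes because MYCN and MAX are known to bind CACGTG, a palindrome that reads the same on both strands. Promoter windows of 250 bases before to 50 after the start site came from RefSeq (GRCh38.p14), and 704 of the 837 higher and 688 of the 853 lower genes had at least 1. CACGTG was in a window of 25% of the higher genes (176 of 704) and 7.12% of the lower genes (49 of 688). It was in 12.9% of the tested genes with a window (1251 of 9731) and in 7.26% of all 35116 windows of the table. A gene was counted if any of its windows held the motif, so genes with more windows were counted more readily. The share of 7.26% is per window and so on another measure. Of the 24 genes with the largest differences, 7 of the 12 higher and 9 of the 12 lower had a window, which held the motif for 3 higher genes (STAG3, SLC7A5, CABLES1) and 1 lower gene (TAC1). For each gene with the motif among these largest differences, 1 such window is shown. STAG3 had 2 windows, both with the motif, and CABLES1 had 3, of which 2 held it. ABCA17P, first among the higher genes, had no window, and the windows of SPHK1 and HPDL, next in size, held no motif. CACGTG is in capitals, and each window runs 5′ to 3′ on the gene's strand. STAG3 is at chr7:100177474-100177773 (plus strand), SLC7A5 at chr16:87869458-87869757 (minus strand), CABLES1 at chr18:23135235-23135534 (plus strand) and TAC1 at chr7:97731836-97732135 (plus strand). The motif begins 130 bases before the start of SLC7A5, 90 before that of CABLES1, 61 before that of TAC1 and 24 after that of STAG3.
STAG3: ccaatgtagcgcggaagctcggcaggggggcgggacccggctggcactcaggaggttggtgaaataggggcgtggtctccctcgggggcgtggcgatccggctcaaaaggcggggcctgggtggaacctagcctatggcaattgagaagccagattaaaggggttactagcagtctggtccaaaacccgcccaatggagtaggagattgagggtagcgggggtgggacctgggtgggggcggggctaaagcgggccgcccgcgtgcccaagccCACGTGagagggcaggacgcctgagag
SLC7A5: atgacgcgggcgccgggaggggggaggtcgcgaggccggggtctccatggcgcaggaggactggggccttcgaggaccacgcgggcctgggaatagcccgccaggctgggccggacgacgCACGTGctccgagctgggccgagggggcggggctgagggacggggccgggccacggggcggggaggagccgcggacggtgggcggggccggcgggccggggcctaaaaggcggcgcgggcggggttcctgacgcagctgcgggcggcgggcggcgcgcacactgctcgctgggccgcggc
CABLES1: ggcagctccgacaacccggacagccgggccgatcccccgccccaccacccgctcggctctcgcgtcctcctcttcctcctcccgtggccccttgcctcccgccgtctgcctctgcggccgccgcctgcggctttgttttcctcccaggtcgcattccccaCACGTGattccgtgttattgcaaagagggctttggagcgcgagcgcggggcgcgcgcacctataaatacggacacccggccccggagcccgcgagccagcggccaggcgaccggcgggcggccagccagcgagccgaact
TAC1: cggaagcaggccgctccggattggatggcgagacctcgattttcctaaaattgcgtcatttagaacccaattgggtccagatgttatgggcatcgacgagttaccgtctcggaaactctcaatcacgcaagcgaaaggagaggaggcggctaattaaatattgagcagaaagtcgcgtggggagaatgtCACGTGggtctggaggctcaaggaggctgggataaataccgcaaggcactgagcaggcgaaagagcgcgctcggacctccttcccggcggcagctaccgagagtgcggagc
The matches are letters in a window, not measured binding, and TAC1 shows that the motif also stood before a gene that was lower.

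Of 25 tested nucleolar factors of ribosome biogenesis, 11 were called higher and 0 lower, against 7.05% of all tested genes called higher, and all 25 had a difference above 0 (median difference 0.31, 0.18 in MYCN cells and -0.16 in mock cells). Over all tested genes the median difference was -0.038. RRP9, a protein of the U3 small nucleolar particle, led the list. RRP9 read 169, 218 and 272 in the 12 late MYCN arrays, against 73.9, 86.1 and 146 in the 9 early ones. Mock RRP9 signals were 66.7, 68.5, 52.2 and 49.5 in time order, against 93.5, 67.6 and 64.3 early. Late MYCN signals of RRP9 all exceeded the early ones, and mock signals of times 96 and 192 lay below all early mock signals. The difference was 1.49 (SE 0.25), limma adjusted p = 3.73e-04. RRP12 (0.93 (SE 0.22), limma adjusted p = 0.00687) and UTP20 (0.87 (SE 0.19), limma adjusted p = 0.00316), which mature the ribosomal subunits, followed, and all 3 kept their calls with any 1 library left out. Without the mock array of time 192, 6 members were called and the median was 0.28. The count ran from 4 to 13 with 1 library left out (fewest without mock time 4), and within batch 2 it was 2, with a median of 0.23. UTP20 was not called within batch 2 (limma adjusted p = 0.154). RRP12 and UTP20 were not called with time 0 alone as baseline or over times 24 and 48 (limma adjusted p = 0.0723 to 0.229).

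RNA polymerases I and III, which transcribe ribosomal and transfer RNA genes, gave 5 higher and 1 lower of 24 tested subunits and factors. These are 20.8% and 4.17%, against 7.05% and 7.19% of all tested genes. The median difference was 0.25 (0.12 in MYCN cells and -0.08 in mock cells), and within batch 2 the counts were 2 higher and 0 lower. POLR3G, a subunit of RNA polymerase III known from stem cells, differed by 1.53 (SE 0.32), limma adjusted p = 0.00269. POLR3G read 157, 265 and 392 in the 12 late MYCN arrays, against 67.4, 91.7 and 142 in the 9 early ones. Mock POLR3G signals were 37.2, 48.1, 38.5 and 32.5 in time order, against 35.7, 47.8 and 53.2 early. POLR1G, a subunit of polymerase I, differed by 1.43 (SE 0.25), limma adjusted p = 6.59e-04, and both kept their calls with any 1 library left out. BRF1, an initiation factor of polymerase III, was the lower gene (-0.95 (SE 0.33), limma adjusted p = 0.0493), a call lost without MYCN replicate 1 or 2 or the mock array of time 0, 4, 48, 96 or 192 (-0.98 to -0.80, limma adjusted p = 0.0617 to 0.173). The higher count ran from 2 to 6 with 1 library left out (fewest without MYCN replicate 2), and it was 3 without mock time 192. BRF1 was not called within batch 2 (limma adjusted p = 0.179). POLR3G and BRF1 were not called with time 0 alone as baseline or over times 24 and 48 (limma adjusted p = 0.0859 to 0.377). Both calls were also lost with the mean of probe sets.

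Of 30 mitochondrial ribosomal proteins, 17 were higher (56.7%, against 7.05% of all tested genes) and 0 lower. Their median difference was 0.35 (0.20 in MYCN cells and -0.13 in mock cells). Within batch 2, 6 were higher and 0 lower, and 12 were higher without the mock array of time 192 (median 0.34, and 0.34 within batch 2). MRPS12 differed by 0.62 (SE 0.11), limma adjusted p = 5.91e-04. MRPS12 read 734, 828 and 932 in the 12 late MYCN arrays, against 588, 703 and 790 in the 9 early ones. Mock MRPS12 signals were 549, 561, 512 and 427 in time order, against 656, 657 and 657 early. Changes were small in either line, with the late MYCN median above the early one and all late mock signals below the early ones. MRPL15 differed by 0.60 (SE 0.14), limma adjusted p = 0.00575, and both kept their calls with any 1 library left out. MRPL1 differed by 0.76 (SE 0.21), limma adjusted p = 0.0163, lost without MYCN replicate 2 or the mock array of time 192 (0.53 to 0.76, limma adjusted p = 0.0567 to 0.0612). Of 23 cytosolic ribosomal proteins 0 were higher and 1 lower (4.35%, against 7.19% of all tested genes). A difference above 0 was found for 0 of the 23 (median difference -0.13, -0.047 in MYCN cells and 0.089 in mock cells). RPS9 was the lower one (-0.23 (SE 0.068), limma adjusted p = 0.0206), lost without MYCN replicate 2 or the mock array of time 0 or 4 (-0.23 to -0.21, limma adjusted p = 0.0609 to 0.0731), and its difference turned to 0.032 when all probe sets of the gene were averaged. With the replicate numbers as a block 2 were lower. MRPL15, MRPL1 and RPS9 were not called within batch 2 or with time 0 alone as baseline or over times 24 and 48 (limma adjusted p = 0.0548 to 0.402). MRPS12 was not called with the mean of probe sets.

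Aminoacyl-tRNA synthetases, which charge transfer RNAs, were higher in 7 of 17 members (41.2%, against 7.05% of all tested genes) and lower in 0. Their median difference was 0.22 (0.13 in MYCN cells and -0.10 in mock cells), and within batch 2 the counts were 3 higher and 0 lower. FARSB, a subunit of the phenylalanine enzyme, differed by 0.49 (SE 0.13), limma adjusted p = 0.0127 and kept its call with any 1 library left out. GARS1, the glycine enzyme, differed by 0.45 (SE 0.14), limma adjusted p = 0.0298, lost without the mock array of time 0, 4, 8, 48, 96 or 192 (0.42 to 0.47, limma adjusted p = 0.0507 to 0.0872). The count ran from 2 to 7 with 1 library left out (fewest without mock time 4) and was 4 without mock time 192. FARSB and GARS1 were not called within batch 2 or with time 0 alone as baseline or over times 24 and 48 (limma adjusted p = 0.0519 to 0.337).

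Nucleotide and one-carbon synthesis gave 8 higher and 1 lower of 23 tested genes (34.8% and 4.35%, against 7.05% and 7.19% of all tested genes). Their median difference was 0.31 (0.27 in MYCN cells and -0.09 in mock cells), and within batch 2 the counts were 4 higher and 0 lower. PFAS, an enzyme of the purine pathway, was first. PFAS read 375, 406 and 521 in the 12 late MYCN arrays, against 263, 289 and 333 in the 9 early ones. Mock PFAS signals were 196, 170, 161 and 145 in time order, against 200, 208 and 189 early. The PFAS difference was 0.78 (SE 0.13), limma adjusted p = 3.63e-04. ADSL, a further enzyme of that pathway, differed by 0.64 (SE 0.15), limma adjusted p = 0.00494, and both kept their calls with any 1 library left out. PRPS1, which makes the sugar phosphate of nucleotides, differed by 0.63 (SE 0.19), limma adjusted p = 0.0250, lost without MYCN replicate 2 or the mock array of time 4, 8 or 192 (0.54 to 0.65, limma adjusted p = 0.0577 to 0.10). The lower gene was IMPDH2 (-0.35 (SE 0.095), limma adjusted p = 0.0156), which opens guanine nucleotide synthesis. IMPDH2 falls outside the rule for named genes and was picked after its values were seen, and the lower count of the list was 0 without MYCN replicate 1 or mock time 4 (limma). Without mock time 192 the counts were 5 higher and 1 lower, and the higher count ran from 5 to 11 with 1 library left out (fewest without mock time 4, 8 or 192). ADSL was not called within batch 2 (limma adjusted p = 0.0864). ADSL and PRPS1 were not called with time 0 alone as baseline or over times 24 and 48 (limma adjusted p = 0.109 to 0.318).

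Polyamine genes were higher in 5 of 14 members (35.7%, against 7.05% of all tested genes) and lower in 0. Their median difference was 0.28 (0.13 in MYCN cells and -0.15 in mock cells), and within batch 2 the counts were 2 higher and 0 lower. ODC1, the first enzyme of polyamine synthesis and a known MYC target, led. ODC1 read 2030, 2512 and 2661 in the 12 late MYCN arrays, against 1257, 1578 and 1869 in the 9 early ones. Mock ODC1 signals were 905, 779, 850 and 388 in time order, against 1006, 1005 and 1174 early. The mock array of time 192 held by far the lowest ODC1 signal, and the difference was 1.22 (SE 0.21), limma adjusted p = 4.57e-04 with it and 0.94, limma adjusted p = 3.60e-04 without it. ODC1 kept its call with any 1 library left out. SMOX, which oxidises spermine, differed by 0.79 (SE 0.23), limma adjusted p = 0.0190, lost without MYCN replicate 2 or the mock array of time 0 or 8 (0.72 to 0.73, limma adjusted p = 0.0657 to 0.0731). AMD1, the second decarboxylase of the pathway, differed by 0.62 (SE 0.20), limma adjusted p = 0.0334, lost without MYCN replicate 1 or 2 or the mock array of time 4, 8 or 192 (0.38 to 0.63, limma adjusted p = 0.0730 to 0.112). The count ran from 3 to 6 with 1 library left out (fewest without MYCN replicate 2 or mock time 8), and the median of the list was -0.011 once _s_at and _x_at probe sets were dropped. SMOX and AMD1 were not called within batch 2 or with time 0 alone as baseline or over times 24 and 48 (limma adjusted p = 0.0782 to 0.364).

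Chaperones were higher in 11 of 19 members (57.9%, against 7.05% of all tested genes) and lower in 0. Their median difference was 0.22 (0.18 in MYCN cells and -0.077 in mock cells), and within batch 2 the counts were 4 higher and 0 lower. GRPEL1, the nucleotide exchange factor of mitochondrial HSP70, differed by 0.90 (SE 0.18), limma adjusted p = 0.00161. GRPEL1 read 393, 524 and 648 in the 12 late MYCN arrays, against 268, 376 and 433 in the 9 early ones. Mock GRPEL1 signals were 194, 173, 176 and 164 in time order, against 224, 257 and 214 early. HSPH1 (0.72 (SE 0.17), limma adjusted p = 0.00570) and HSPA4 (0.59 (SE 0.11), limma adjusted p = 8.34e-04), cytosolic relatives of HSP70, followed. All 3 kept their calls with any 1 library left out. Without mock time 192, 8 members were called (median 0.16), and the count ran from 7 to 12 with 1 library left out (fewest without mock time 8). HSPH1 was not called within batch 2 or with time 0 alone as baseline (limma adjusted p = 0.0672 to 0.0992). GRPEL1 and HSPH1 were not called over times 24 and 48 (limma adjusted p = 0.0723 to 0.174). HSPH1 and HSPA4 were not called without the _s_at and _x_at probe sets, and HSPH1 was not called with the mean of probe sets.

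Glycolysis gave 6 higher and 1 lower of 18 genes (33.3% and 5.56%, against 7.05% and 7.19% of all tested genes). Their median difference was 0.16 (0.053 in MYCN cells and -0.11 in mock cells), and within batch 2 the counts were 1 higher and 1 lower. The lower gene had the largest change: ALDOC, the aldolase of brain, differed by -1.56 (SE 0.36), limma adjusted p = 0.00537 and kept its call with any 1 library left out. ALDOC read 27.2, 44.5 and 86.6 in the 12 late MYCN arrays, against 84.4, 124 and 133 in the 9 early ones. Mock ALDOC signals were 69, 102, 84.5 and 124 in time order, against 88.3, 66.3 and 68.5 early. HK1 and HK2, the hexokinases that trap glucose, differed by 0.53 (SE 0.15), limma adjusted p = 0.0157 and 0.82 (SE 0.27), limma adjusted p = 0.0398. The HK1 call was lost without MYCN replicate 2 or the mock array of time 0 (0.42 to 0.45, limma adjusted p = 0.0697 to 0.0863), and that of HK2 without MYCN replicate 1 or 2 or the mock array of time 0, 4, 8, 96 or 192 (0.64 to 0.88, limma adjusted p = 0.0644 to 0.129). The higher count ran from 2 to 7 with 1 library left out (fewest without MYCN replicate 2). HK1 and HK2 were not called within batch 2 (limma adjusted p = 0.117 to 0.273). ALDOC, HK1 and HK2 were not called with time 0 alone as baseline or over times 24 and 48 (limma adjusted p = 0.0993 to 0.617).

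**Figure D4:**
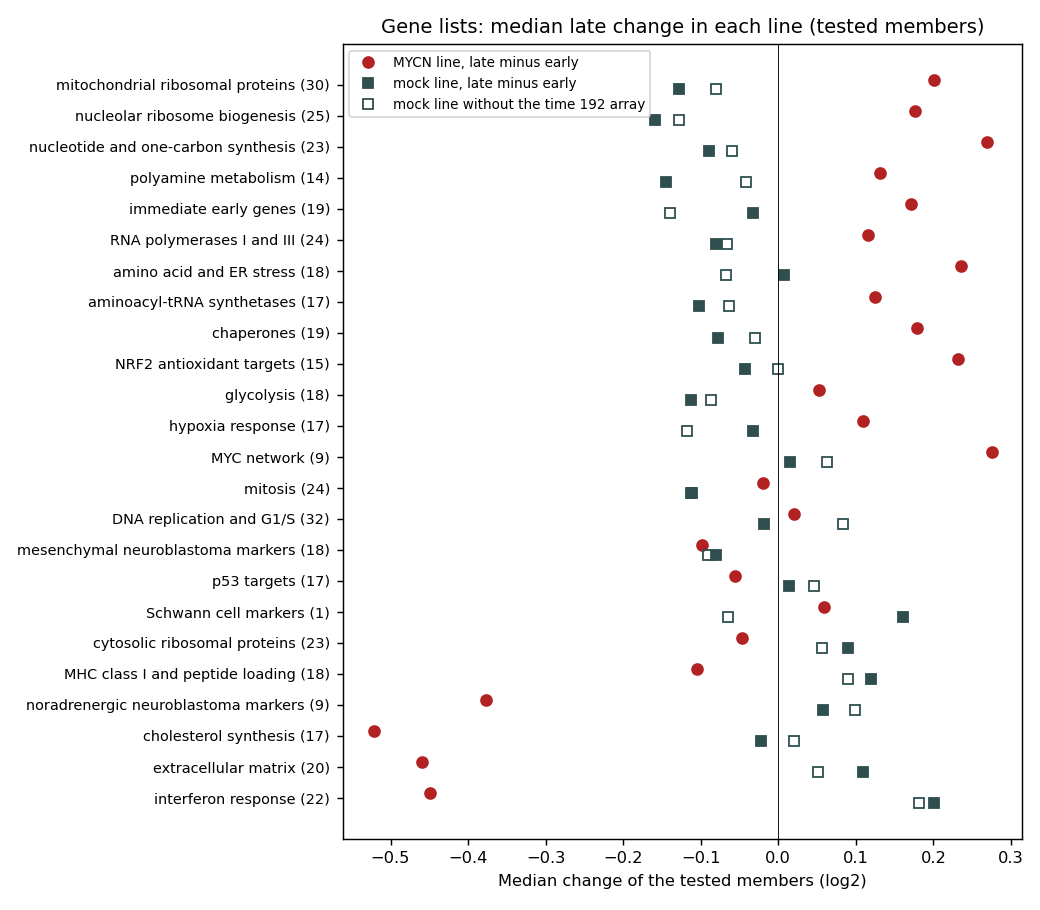
Median late minus early change (log2, horizontal) of the tested members of 24 gene lists, with the number tested in brackets, in the MYCN line (circles), the mock line (filled squares) and the mock line without its time 192 array (open squares). Lists run from the highest median difference between lines at the top (mitochondrial ribosomal proteins, 0.35) to the lowest at the bottom (interferon response, -0.68).

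Of 32 genes of DNA replication and the G1/S transition, 2 were higher (6.25%, against 7.05% of all tested genes) and 0 lower, which is 0 of 32 called without mock time 192 (limma), when the median was -0.076 instead of 0.03. They were CCND1 (0.96 (SE 0.33), limma adjusted p = 0.0457) and CCNE1 (0.47 (SE 0.15), limma adjusted p = 0.0312), the G1 cyclins D1 and E1. The CCND1 call was lost without MYCN replicate 2 or the mock array of time 0, 4, 8, 24, 48, 96 or 192 (0.76 to 1.06, limma adjusted p = 0.0583 to 0.163) and that of CCNE1 without MYCN replicate 2 or the mock array of time 8 or 192 (0.32 to 0.44, limma adjusted p = 0.107 to 0.182), and averaging all probe sets turned CCNE1 to -0.30. Of 24 mitosis genes 4 were higher (16.7%, against 7.05% of all tested genes) and 1 lower (4.17%, against 7.19%). The median was 0.083 (-0.019 in MYCN cells and -0.11 in mock cells), and within batch 2 the counts were 3 and 0. CDC20, an activator of the anaphase-promoting complex, differed by 0.69 (SE 0.15), limma adjusted p = 0.00290 and kept its call with any 1 library left out. CDC20 read 916, 1133 and 1325 in the 12 late MYCN arrays, against 804, 940 and 1134 in the 9 early ones. Mock CDC20 signals were 514, 550, 514 and 460 in time order, against 720, 700 and 707 early. BUB1, a spindle checkpoint kinase, differed by 0.45 (SE 0.13), limma adjusted p = 0.0171, lost without the mock array of time 0 or 192 (0.40 to 0.42, limma adjusted p = 0.0507 to 0.0548). KIF20A, a kinesin of cytokinesis, was the lower one (-0.42 (SE 0.14), limma adjusted p = 0.0466), lost without MYCN replicate 1 or 2 or the mock array of time 0, 4, 8, 24, 96 or 192 (-0.46 to -0.31, limma adjusted p = 0.0606 to 0.174). The higher mitosis count ran from 2 to 5 with 1 library left out (fewest without mock time 0 or 192). CCND1, CCNE1, BUB1 and KIF20A were not called within batch 2 (limma adjusted p = 0.0519 to 0.486). CCND1, CCNE1, CDC20, BUB1 and KIF20A were not called with time 0 alone as baseline or over times 24 and 48 (limma adjusted p = 0.0896 to 0.429).

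Of 17 p53 target genes 0 were higher and 3 lower (17.6%, against 7.19% of all tested genes). The median was -0.083, and a difference above 0 was found for 6 of the 17. In the MYCN line alone 4 were called higher and 5 lower. The lower count of 3 held in each of the 10 leave-outs, while the higher count ran from 0 to 2 (most without MYCN replicate 3). Within batch 2 the counts were 0 higher and 1 lower (median -0.019). TP53INP1, which acts in p53-dependent cell death, had the largest difference. TP53INP1 read 4.1, 7.5 and 16.9 in the 12 late MYCN arrays, against 23.2, 35.8 and 65.1 in the 9 early ones. Mock TP53INP1 signals were 118, 93.8, 105 and 96.4 in time order, against 76.5, 79.5 and 97 early. TP53INP1 fell in the MYCN line, where all late signals lay below the early ones, while late mock signals lay above the early mock mean. The difference was -2.47 (SE 0.42), limma adjusted p = 4.25e-04, of uncertain size since the late MYCN median lay under the filter level. FAS, a death receptor (-0.88 (SE 0.22), limma adjusted p = 0.00994), and DDB2, a DNA damage sensor (-0.81 (SE 0.18), limma adjusted p = 0.00403), were the others, and all 3 kept their calls with any 1 library left out. With the replicate numbers as a block 2 members were higher and 4 lower. FAS and DDB2 were not called within batch 2 or with time 0 alone as baseline or over times 24 and 48 (limma adjusted p = 0.0876 to 0.173).

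NRF2 targets, genes of the antioxidant response, were higher in 4 of 15 members (26.7%, against 7.05% of all tested genes) and lower in 0. Their median difference was 0.20 (0.23 in MYCN cells and -0.043 in mock cells), and within batch 2 the counts were 1 higher and 1 lower. TXNRD1, the cytosolic thioredoxin reductase, differed by 0.75 (SE 0.19), limma adjusted p = 0.0111, and NQO1, a quinone reductase, by 0.40 (SE 0.094), limma adjusted p = 0.00593, and both kept their calls with any 1 library left out. GCLM, a subunit of the enzyme that starts glutathione synthesis, differed by 1.02 (SE 0.28), limma adjusted p = 0.0156, lost without MYCN replicate 2 or the mock array of time 8 or 192 (0.84 to 0.96, limma adjusted p = 0.0509 to 0.0662). The count ran from 2 to 4 with 1 library left out (fewest without MYCN replicate 2 or mock time 8 or 192). Of 18 genes of amino acid and endoplasmic reticulum stress, SLC7A5 alone was called (5.56% higher, against 7.05% of all tested genes) and 0 were lower. With the replicate numbers as a block 2 were called higher. NQO1 and GCLM were not called within batch 2 (limma adjusted p = 0.0763 to 0.0826). TXNRD1, NQO1 and GCLM were not called with time 0 alone as baseline or over times 24 and 48 (limma adjusted p = 0.0564 to 0.366). The TXNRD1 call was also lost with the mean of probe sets.

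Immediate early genes, the first to answer growth signals, were higher in 3 and lower in 2 of 19 members, which is 15.8% and 10.5% against 7.05% and 7.19% of all tested genes (median 0.27). DUSP4, an ERK phosphatase like DUSP5, differed by 1.54 (SE 0.39), limma adjusted p = 0.00900 and kept its call with any 1 library left out. DUSP4 read 152, 402 and 490 in the 12 late MYCN arrays, against 92.6, 151 and 216 in the 9 early ones. Mock DUSP4 signals were 280, 284, 230 and 205 in time order, against 343, 289 and 296 early. DUSP4 rose in the MYCN line and lay below its early mean in all 4 late mock arrays. SPRY2, an inhibitor of receptor tyrosine kinase signalling, was lower (-0.94 (SE 0.28), limma adjusted p = 0.0248), lost without MYCN replicate 1 or the mock array of time 0, 4, 8 or 192 (-0.98 to -0.83, limma adjusted p = 0.0513 to 0.0712). The lower count was 0 without mock time 0, 4, 8 or 192 (limma), and within batch 2 the counts were 1 higher and 0 lower. The higher count ran from 1 to 5 with 1 library left out (fewest without mock time 8) and was 5 with the replicate numbers as a block. SPRY2 was not called within batch 2 (limma adjusted p = 0.124). DUSP4 and SPRY2 were not called with time 0 alone as baseline or over times 24 and 48 (limma adjusted p = 0.131 to 0.418).

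Hypoxia response genes were higher in 4 and lower in 1 of 17 members (median 0.15). These are 23.5% and 5.88%, against 7.05% and 7.19% of all tested genes. ANKRD37, a target of hypoxia-inducible factor, differed by 1.27 (SE 0.23), limma adjusted p = 7.73e-04, and BNIP3L, a mitophagy receptor, by -0.68 (SE 0.13), limma adjusted p = 0.00124. Both kept their calls with any 1 library left out, and MXI1, described above, is a member of the same list. The higher count ran from 2 to 4 with 1 library left out (fewest without MYCN replicate 2 or 3 or mock time 0, 4, 8 or 192). BNIP3L was not called within batch 2 (limma adjusted p = 0.0692), and ANKRD37 was not called with the mean of probe sets.

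Noradrenergic markers were lower in 3 of the 9 members that passed the filter on low values (33.3%, against 7.19% of all tested genes), and higher in 0 (median -0.25). A difference above 0 was found for 3 of the 9. In the MYCN line alone 1 was called higher and 5 lower. PHOX2A averaged 6.3 late and 4.33 early in MYCN cells, under the filter level, and passed it through the mock line. Without the mock array of time 0, 4, 8, 96 or 192, 0 of the 9 were called (limma). RET, the receptor of glial-derived neurotrophic factors, had the clearest signal. RET read 13.6, 110 and 665 in the 12 late MYCN arrays, against 529, 827 and 1116 in the 9 early ones. Mock RET signals were 2664, 2452, 2809 and 3730 in time order, against 1991, 1960 and 1895 early. The RET difference was -3.36 (SE 1.07), limma adjusted p = 0.0331, lost without MYCN replicate 2 or the mock array of time 0, 4, 8, 96 or 192 (-3.38 to -3.09, limma adjusted p = 0.0522 to 0.0877). CHGA is chromogranin A of secretory granules. CHGA read 1.5, 7.75 and 60.6 in the 12 late MYCN arrays, against 9.6, 48.1 and 133 in the 9 early ones. Mock CHGA signals were 113, 139, 155 and 313 in time order, against 102, 67.3 and 70.3 early. Late MYCN signals of CHGA had a median under 12.8, the level of the filter on low values, so the size of the difference is uncertain. CHGA differed by -3.58 (SE 1.14), limma adjusted p = 0.0342, lost without MYCN replicate 1 or the mock array of time 0, 4, 8, 96 or 192 (-3.77 to -3.28, limma adjusted p = 0.0522 to 0.0893). TBX2, a core transcription factor of the state, differed by -0.74 (SE 0.25), limma adjusted p = 0.0462, lost without MYCN replicate 1 or 2 or the mock array of time 0, 4, 8, 48, 96 or 192 (-0.80 to -0.66, limma adjusted p = 0.0596 to 0.115). The median of the list turned to 0.020 when no filter on low values was set. RET, CHGA and TBX2 were not called within batch 2 or with time 0 alone as baseline or over times 24 and 48 (limma adjusted p = 0.0527 to 0.454).

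Mesenchymal markers gave equal counts in both directions. Of 18 tested members 2 were higher and 2 lower (11.1% each, against 7.05% and 7.19% of all tested genes). The median difference was 0.0071. FOSL1, an AP-1 factor, was higher (1.69 (SE 0.43), limma adjusted p = 0.0101), lost without MYCN replicate 2 (1.34, limma adjusted p = 0.0663). FN1, fibronectin, was lower (-2.12 (SE 0.54), limma adjusted p = 0.0106), and so was PDGFRB, a receptor of platelet-derived growth factor (-1.26 (SE 0.31), limma adjusted p = 0.00770), both with any 1 library left out. FN1 read 226, 507 and 1279 in the 12 late MYCN arrays, against 1354, 2006 and 2343 in the 9 early ones. Mock FN1 signals were 250, 262, 264 and 373 in time order, against 240, 222 and 227 early. FN1 fell in the MYCN line and lay above its early mean in all 4 late mock arrays. Without MYCN replicate 2, 0 members were called higher, and with the replicate numbers as a block 4 were lower. MBP, a myelin protein, was the single Schwann cell marker of 8 that passed the filter, and it was not called (-0.10 (SE 0.68), limma adjusted p = 0.943). FOSL1 was not called within batch 2 (limma adjusted p = 0.0527). FOSL1, FN1 and PDGFRB were not called with time 0 alone as baseline or over times 24 and 48 (limma adjusted p = 0.0824 to 0.208).

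Extracellular matrix genes were lower in 5 of 20 members (25%, against 7.19% of all tested genes) and higher in 0. Their median difference was -0.65 (-0.46 in MYCN cells and 0.11 in mock cells), and within batch 2 the counts were 0 higher and 2 lower. DCN and FN1, given above, were the largest. COL5A1, a fibrillar collagen chain, differed by -1.05 (SE 0.35), limma adjusted p = 0.0393, lost without MYCN replicate 2 or 3 or the mock array of time 0, 4, 8, 96 or 192 (-1.12 to -0.85, limma adjusted p = 0.0613 to 0.122). The lower count ran from 2 to 6 with 1 library left out (fewest without MYCN replicate 2 or mock time 4, 8, 96 or 192) and was 9 with the replicate numbers as a block. The median was -0.61 without mock time 192 and -0.72 within batch 2. In the MYCN line the list median was -0.24 at time 24 and -0.58 at time 48, and it then changed little (-0.53 and -0.55). In the mock line it was 0.11, -0.0048, 0.045 and 0.44. COL5A1 was not called with time 0 alone as baseline or over times 24 and 48 (limma adjusted p = 0.251 to 0.298).

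Interferon response genes had the lowest median of the 24 lists. Of 22 tested members 12 were lower and 0 higher, against 7.19% of all tested genes called lower (median difference -0.68, -0.45 in MYCN cells and 0.20 in mock cells). IFITM1, a membrane protein that blocks virus entry, was among the largest. IFITM1 read 61.4, 158 and 237 in the 12 late MYCN arrays, against 244, 256 and 440 in the 9 early ones. Mock IFITM1 signals were 38.4, 40, 42.9 and 51 in time order, against 31.6, 31.3 and 27.2 early. IFITM1 differed by -1.39 (SE 0.36), limma adjusted p = 0.0110 and kept its call with any 1 library left out. IFI44L, an interferon-induced gene, differed by -2.01 (SE 0.53), limma adjusted p = 0.0128, lost without MYCN replicate 2 (-1.79, limma adjusted p = 0.0548). MX1, an antiviral GTPase, differed by -1.47 (SE 0.50), limma adjusted p = 0.0458 at signals under 20 on average in each line and period, lost without MYCN replicate 1, 2 or 3 or the mock array of time 4, 24 or 192 (-1.61 to -0.73, limma adjusted p = 0.0682 to 0.331). Without mock time 192, 7 members were lower (median -0.56), and the lower count ran from 6 to 11 with 1 library left out (fewest without MYCN replicate 2). The median was -0.51 within batch 2, where 3 members were called lower. IFI44L and MX1 were not called within batch 2 (limma adjusted p = 0.0862 to 0.179). IFITM1, IFI44L and MX1 were not called with time 0 alone as baseline or over times 24 and 48 (limma adjusted p = 0.10 to 0.558).

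Genes of MHC class I and peptide loading, which show peptides to T cells, were lower in 3 of 18 members (16.7%, against 7.19% of all tested genes) and higher in 0 (median difference -0.20, -0.11 in MYCN cells and 0.12 in mock cells), and 0 of 18 were called within batch 2 (limma). HLA-B and HLA-C, the presenting chains, differed by -0.54 (SE 0.17), limma adjusted p = 0.0377 and -0.54 (SE 0.15), limma adjusted p = 0.020. Most of that came from the mock line, where HLA-B lay at 0.082, 0.21, 0.26 and 1.18 (log2 from its early mean), so that the last array stood out. Without that array they differed by -0.29, limma adjusted p = 0.101 (HLA-B) and -0.31, limma adjusted p = 0.0358 (HLA-C). The HLA-C call was lost without MYCN replicate 1 or 2 or the mock array of time 4 (-0.54 to -0.52, limma adjusted p = 0.0626 to 0.0683), and that of HLA-B without MYCN replicate 1, 2 or 3 or the mock array of time 0, 4, 8 or 192 (-0.57 to -0.29, limma adjusted p = 0.0605 to 0.101). ERAP2, a peptide-trimming enzyme, differed by -0.72 (SE 0.23), limma adjusted p = 0.0347, lost without MYCN replicate 1 or 2 or the mock array of time 0, 8, 48 or 96 (-0.75 to -0.59, limma adjusted p = 0.0517 to 0.140). The lower count was 5 with the replicate numbers as a block and 0 without MYCN replicate 1 or 2. HLA-B, HLA-C and ERAP2 were not called within batch 2 or with time 0 alone as baseline or over times 24 and 48 (limma adjusted p = 0.112 to 0.443).

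Cholesterol synthesis genes were lower in 3 of 17 members (17.6%, against 7.19% of all tested genes) and higher in 0. Their median difference was -0.51 (-0.52 in MYCN cells and -0.022 in mock cells), and within batch 2 the counts were 0 higher and 1 lower. SREBF2, the transcription factor that controls the pathway, differed by -1.48 (SE 0.32), limma adjusted p = 0.00309. SREBF2 read 38.2, 59.5 and 100 in the 12 late MYCN arrays, against 64.1, 92.9 and 114 in the 9 early ones. Mock SREBF2 signals were 100, 109, 100 and 205 in time order, against 61.4, 70.7 and 70.3 early. SREBF2 fell in the MYCN line, with overlap between late and early signals, and all late mock signals lay above the early ones. Its mock change itself was not called, and without mock time 192 the difference was -1.23, limma adjusted p = 0.0124. TM7SF2, given above, and SREBF2 kept their calls with any 1 library left out. MVD, which makes isopentenyl pyrophosphate, differed by -2.01 (SE 0.60), limma adjusted p = 0.0242 at mean signals under 20, lost without MYCN replicate 1 or 2 or the mock array of time 0, 8 or 192 (-1.98 to -1.53, limma adjusted p = 0.0540 to 0.128). The lower count ran from 2 to 7 with 1 library left out (fewest without MYCN replicate 1 or 2 or mock time 0 or 8) and was 5 with the replicate numbers as a block. In the MYCN line the list median was -0.27, -0.30, -0.57 and -0.82 in time order, lower at each step. SREBF2 and MVD were not called within batch 2 or with time 0 alone as baseline or over times 24 and 48 (limma adjusted p = 0.0559 to 0.223).

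**Figure D5:**
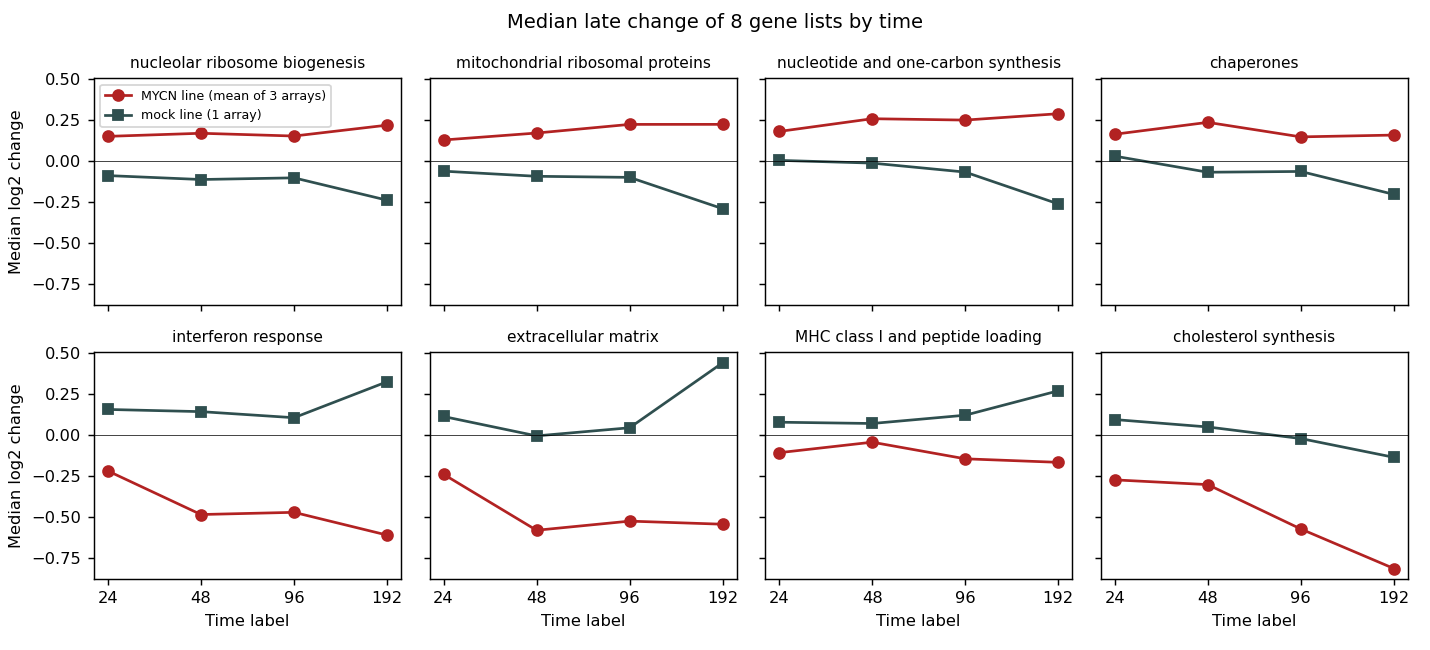
Median change from the early mean of the own line (log2, vertical) of the tested members of 8 gene lists at times 24, 48, 96 and 192 (horizontal, unit not stated), MYCN line (circles, mean of 3 arrays) and mock line (squares, 1 array). In the top row the MYCN line lies above 0 at all 4 times, and in the bottom row it lies below 0, with the largest mock shift of the matrix list at time 192 (0.44).

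Whether the lines went on diverging within the late period was tested as a difference in slope over the 4 late times. Of 11865 genes 118 were called (0.995%), 66 with a higher slope in the MYCN line and 52 with a lower one. This rested on single arrays: without the mock array of time 192, 0 genes were called (limma, 521 with an unadjusted p under 0.05). The count was 3 and 4 without MYCN replicate 1 or 2, 368 without replicate 3, and 29, 30 and 432 without mock time 24, 48 or 96. With the replicate numbers as a block it was 981. The higher slopes named were those of MT1HL1, described above (1.33 per time step, limma adjusted p = 0.0422), KLHL21, an adaptor of a ubiquitin ligase (0.58, limma adjusted p = 0.0202), INO80C, a subunit of a chromatin remodeller (0.55, limma adjusted p = 0.0438), and GCLM (0.54, limma adjusted p = 0.0422). PDE9A, a cyclic GMP phosphodiesterase, had the most negative difference of the named genes (-1.54, limma adjusted p = 0.0194), with MYCN cells at -0.087 (time 24) and -1.68 (time 192) and mock signals near background. SYCP2, a protein of the synaptonemal complex, had a slope that differed by -1.31 per time step (limma adjusted p = 0.00196), with the mock line at -3.36, -3.21, -1.07 and -0.26 at the 4 late times. Its mock signals averaged 3.5 late and 9.4 early, at background. GASK1B and DCN had slopes that differed by -1.26 and -1.23 (limma adjusted p = 0.0182 and 0.0422). For these 2 genes the MYCN line moved, with mean changes of -1.25, -2.0, -4.0 and -5.32 for GASK1B at times 24, 48, 96 and 192.

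The mock line alone had EMP1, KIF5B and RAB20 called, from 7 arrays. EMP1, a membrane protein of epithelial cells, was lower late than early by 0.85 on the log2 scale in the mock line and moved by -0.012 in the MYCN line, a difference of 0.84 (SE 0.16), limma adjusted p = 0.00140. EMP1 read 557, 775 and 944 in the 12 late MYCN arrays, against 621, 790 and 885 in the 9 early ones. Mock EMP1 signals were 291, 279, 248 and 251 in time order, against 517, 510 and 424 early. KIF5B, a kinesin heavy chain, moved by -0.055 in MYCN cells and -0.45 in mock cells, a difference of 0.39 (SE 0.09), limma adjusted p = 0.00485. RAB20, a small GTPase, was the single gene called higher late in the mock line: it moved by 0.17 in MYCN cells and 1.93 in mock cells, with mean mock signals of 15.9 late and 4.53 early, a difference of -1.76 (SE 0.36), limma adjusted p = 0.00223. RAB20 falls outside the rule for named genes and was picked after its values were seen. Its mock signals were near or under the filter level of 12.8, so the size of its mock change is uncertain. Its signals in the MYCN line averaged 65.7 late and 59.0 early. Within batch 2 RAB20 was not called (limma adjusted p = 0.0706). All 3 are thus called for the difference between lines although the MYCN line itself was not called for them. Of the genes tested, 0 were called in both lines (limma). EMP1 was not called with time 0 alone as baseline (limma adjusted p = 0.0592). EMP1 and KIF5B were not called over times 24 and 48 (limma adjusted p = 0.0717 to 0.141). Both calls were lost with the mean of probe sets, and that of KIF5B also without the _s_at and _x_at probe sets.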

How the data were processed

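Expression was measured on 28 Affymetrix arrays. The authors deposited linear intensity for each probe set. MAS5 and GCOS are named in the submitters' processing notes, with versions not given in the sources used here. The mean after trimming 2% at either end was 100 in each deposited column, and nothing further was normalized. Values at or under 0 (91) were set to 0.1, and log2 was taken from the deposited intensity. Of 54675 probe sets 41091 named 1 gene by GEO's platform annotation, 1801 several and 11721 none, and 62 were controls. Of the 41091, 41037 matched a current gene identifier. Each of 19775 genes was read by its brightest probe set, and the 11865 at or above the 40th percentile (log2 3.68, signal 12.8) were tested.

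In R 4.3.3, limma 3.58.1 (lmFit, then eBayes with an intensity trend) fitted 4 groups of line and period (24 residual degrees of freedom). The difference between lines was MYCN late minus early less mock late minus early, two-sided, Benjamini-Hochberg over all genes tested. The trend used the 16 late arrays and time steps 3 to 6 (12 residual degrees of freedom). On simulated data for the difference, over 11865 genes, 71 of 100 genes changed by 1 (log2) and 93 of 100 changed by 2 were recovered, with 11 false calls.

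The 24 lists and their genes, like the comparison itself, were chosen with earlier results of these data known. Named genes were MYCN, MYC and MAX; the 12 largest called differences in each direction without overlap and with a mean signal of at least 50 in the line; the 3 largest called members of each list, or the smallest p where 0 were called; genes called in both lines, of which there were 0; up to 3 in each direction called in the mock line and for the difference but not in the MYCN line; and the 4 largest called slopes in each direction, the last 2 kinds with a mean signal of at least 50 over all arrays. Whether MYCN replicate numbers pair the arrays was checked by correlating early and late deviations from the group means: 0.418, 0.207 and 0.540, each over 0.1. The numbers were therefore taken to pair the arrays in the replicate block, from the data and not the labels. Of the MYCN replicates only replicate 3 is in batch 2, so these correlations cannot tell pairing from batch. The main test used no block, and 2227 genes differed between lines with it. Alternatives covered the replicate block, batch, baseline, late times, normalization, probe sets, filter and each left-out library.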

Additional observations from a re-analysis of the deposited data

Results flagged for a closer look

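The change from early to late times differed between the lines by test for 1690 genes, and the slope over late times for 118. The single-array values below are log2 less the early mean of the own line, and each stood far from the others of its group by Dixon's criterion, which chance meets in about 1 in 20 groups. It was met 16 times in 178 groups of 89 named genes, 9 times in the late mock arrays and 7 times in the early MYCN arrays. All 9 in the mock line were the array of time 192. There MT1HL1 was at -3.13 (others -0.65 to -0.17) and MT1X at -2.24 (others -0.94 to -0.80), both metallothioneins. MRPL15 was at -0.80 (others -0.26 to -0.18) and CCNE1 at -0.36 (others 0.06 to 0.09). Higher than the other mock arrays were FN1 at 0.70 (others 0.12 to 0.20), HLA-C at 1.10 (0.13 to 0.26), HLA-B at 1.18 (0.08 to 0.26), SREBF2 at 1.61 (0.57 to 0.69) and PDE9A, a cyclic GMP phosphodiesterase at background in the mock line, at 2.80 (-0.72 to -0.50). In the early MYCN arrays, MT1X was at 0.31 in replicate 2 of time 4 (others -0.16 to 0.04), HK2 at -0.75 and KIF5B at -0.18 in replicate 2 of time 0 (others -0.18 to 0.41 and -0.04 to 0.11). At time 8, C1S was at -0.96 and KIF20A at -0.19 in replicate 3 (others -0.17 to 0.63 and -0.03 to 0.08), and MBP at -1.64 and PDE9A at -0.33 in replicate 2 (others -0.27 to 0.84 and -0.01 to 0.15).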

How the results depend on the processing

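The 1690 genes that differed between lines were 419 within batch 2, 198 with time 0 alone as baseline, 281 over times 24 and 48, 2595 over times 96 and 192, 997 after equalising array medians, 1016 with the mean of probe sets, 1065 without the _s_at and _x_at probe sets, 955 without all arrays of time 192, and 922 to 2238 with 1 library left out. Equal array medians gave a median difference of 0.092 over all tested genes (main -0.038) and 66.6% higher calls (main 49.5%). The 4380 genes of the MYCN line were 1523 within batch 2 and 2661 with time 0 as baseline (3074 to 4550 with 1 library left out). The 3 genes of the mock line were 26 with the replicate block, 94 with 14 groups of line and time, 18 with batch as a block, 1 within batch 2, 152 over times 96 and 192, 10 with quantile normalization, 7 with 16 added before log2, 12 without the _s_at and _x_at probe sets, 8 with medians made equal after the filter, 1 without all arrays of time 192, and 1 to 28 with 1 library left out; they were 0 after equalising array medians and with the mean of probe sets (limma, 1005 and 1177 with an unadjusted p under 0.05). The 118 slopes were 981 with the replicate block, 330 with quantile normalization, 25 after equalising array medians, 31 with no filter, 19 with the mean of probe sets, 69 without the _s_at and _x_at probe sets, 0 without all arrays of time 192 (limma, 515 with an unadjusted p under 0.05), and 0 to 432 with 1 library left out. Directions turned for the noradrenergic median (0.020, no filter), the polyamine median (-0.011, without _s_at and _x_at), and, with the mean of probe sets, RPS9 (0.032), CCNE1 (-0.30) and the MYC network median (-0.066). The causes were not tested. Among the 85 called named genes the call was lost for 67 with time 0 alone as baseline, 62 over times 24 and 48, 50 within batch 2, 26 with the mean of probe sets, 23 after equalising array medians, 16 with no filter and 0 with the replicate block. With 1 library left out 5 to 29 calls were lost, and 49 genes kept theirs in all 10 leave-outs. Alternatives that leave out arrays hold fewer samples. The medians made equal after the filter and the removal of all time 192 arrays were chosen after seeing the data. Dim genes vary most after log2, so their differences are least certain.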

Other observations

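Genes outside the lists were called too, and those named next were picked after their values were seen. PER2 and CRY1, repressors of the clock, differed by 1.45 (SE 0.32), limma adjusted p = 0.00402 and 1.10 (SE 0.17), limma adjusted p = 1.61e-04, and BHLHE41, a further repressor, by 1.5 (SE 0.39), limma adjusted p = 0.0103. BMAL1, an activator of the clock, differed by -1.61 (SE 0.33), limma adjusted p = 0.00181. The mock line moved by -0.034, -0.11, -0.058 and -0.081 for PER2, CRY1, BHLHE41 and BMAL1, and all 4 were called without mock time 192. Within batch 2, PER2 and BHLHE41 were not called (limma adjusted p = 0.0631 and 0.0536). Some genes known from neuronal adhesion or guidance were lower: the contactins CNTN1 (-2.16 (SE 0.53), limma adjusted p = 0.00790) and CNTN4 (-2.56 (SE 0.75), limma adjusted p = 0.0222), the teneurin TENM4 (-2.34 (SE 0.76), limma adjusted p = 0.0364), LRRN3 (-2.21 (SE 0.49), limma adjusted p = 0.00390), SLIT3 (-1.95 (SE 0.44), limma adjusted p = 0.00469) and SEMA6D (-1.94 (SE 0.53), limma adjusted p = 0.0151). Of these, CNTN1, CNTN4, TENM4 and SEMA6D were not called within batch 2 (limma adjusted p = 0.0719, 0.0836, 0.0597 and 0.0861). Beside C1S, the complement genes C1R (-1.88 (SE 0.43), limma adjusted p = 0.00525) and CFI (-1.79 (SE 0.48), limma adjusted p = 0.0143) were lower, and C7 had a larger difference that was not called (-4.12 (SE 1.53), limma adjusted p = 0.0690). C1R and CFI were not called within batch 2 (limma adjusted p = 0.0878 and 0.0762).

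Metallothioneins shared 1 sign: the 7 tested genes MT1E, MT1F, MT1G, MT1H, MT1HL1, MT1X and MT2A had positive differences, and 6 were called (MT1G 0.99 (SE 0.55), limma adjusted p = 0.239). Changes in the MYCN line were 0.34 to 0.69 and in the mock line -1.20 to -0.57. Without mock time 192 only MT1X of the 7 was called.

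Of 341 genes called in the MYCN line with a change of at least 2-fold, 10 had a mock change at least 0.5 times as large in the same direction, and 8 without mock time 192. TNC, tenascin C, stood at -1.53 in MYCN cells and -0.99 in mock cells, and the receptor tyrosine kinase EPHA7 at -1.16 and -0.90 in the MYCN and mock lines. SCG5, a secretory granule protein, stood at 1.81 and 0.95, and CDKL3 at 1.27 and 1.03, each in the MYCN and mock lines. Their mock changes were not called (limma adjusted p = 0.261, 0.411, 0.658 and 0.305 in that order), and EPHA7 mock signals were at background (means of 5.8 late and 10.5 early). Their differences between lines were not called (limma adjusted p = 0.40, 0.772, 0.555 and 0.785 for TNC, EPHA7, SCG5 and CDKL3). These 4 were chosen after their values were seen.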
